A study of Mus musculus with 15 samples.

Results

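The BCL2 family decides whether a cell's mitochondria stay closed or leak, and 10 of its genes were followed in tumor-associated macrophages (TAMs). They were chosen by symbol, as Bcl2, Bcl2l1, Mcl1, Bcl2a1a, Bcl2a1b, Bcl2a1d, Bax, Bak1, Bcl2l11 and Bid, from a table of 55335 mouse genes. All 10 were above 0 FPKM in all 15 samples, and 9 reached a mean of 1 FPKM over the samples, the minimum for the main test, while Bcl2 did not. FPKM counts sequenced fragments relative to transcript length and to the mapped fragments of the sample, so levels can be set side by side between genes.

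The TAMs came from C57BL/6 mice carrying orthotopic hepatocellular carcinoma (HCC), grown in the liver from Hepa1-6 cells, a mouse hepatoma line. In the study's orthotopic model the Hepa1-6 cells carried a luciferase lentivirus for imaging, and the TAMs were sorted with antibodies to CD11b and F4/80. There were 3 groups of 5 samples, from control HCC, from HCC overexpressing miR-144 and from HCC overexpressing miR-451a. The tumor cells, not the macrophages, were made to overexpress a miRNA, and the samples are labelled as untreated. Age and sex are not given in the labels. The labels do not say that the 5 samples of a group came from separate mice, so p-values measure only the spread between these samples, which may be technical. Fewer samples per group are stated in the study's legend for these RNA-seq panels than were deposited, and all deposited samples were used. The mature miRNAs are given here from RefSeq (GRCm38.p6), with bases 2 to 8, the seed, in capitals, because the groups differ in these sequences and no pair of them shares a seed. The labels do not say which arm of miR-144 was overexpressed. They lie on the plus strand, at chr11:78073010-78073032, chr11:78073047-78073066 and chr11:78073186-78073207 in the order printed.
miR-144-5p: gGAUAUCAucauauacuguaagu
miR-144-3p: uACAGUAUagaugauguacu
miR-451a: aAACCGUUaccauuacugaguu

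BCL2 family proteins share short BH domains through which they bind each other on the outer mitochondrial membrane. BAX and BAK form pores that release cytochrome c, BCL2, BCL-XL, MCL1 and A1 hold them in check, and BH3-only proteins such as BIM and BID relieve that check or activate the pore formers directly. Tissue macrophages can live long, and growth factors that keep them alive act in part through the anti-death members.

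The implied depth, read from the steps between low values, was 15.5 to 30.3 M fragments per sample, and it is approximate. Of the 7 macrophage markers checked, all 7 were expressed, with summed FPKM of 8657 to 9465 in control samples, 14633 to 16504 in the miR-144 group and 14334 to 15509 in the miR-451a group. Among them Adgre1, the gene of F4/80, averaged 137 FPKM in control TAMs, 361 in the miR-144 group and 354 in the miR-451a group. The sum is carried by Lyz2, and Cd68 on the same list fell, from 1444 FPKM to 919 and 910.4 (adjusted p = 2.59e-09 and 1.85e-09). Of 6 hepatocyte markers, Alb, Ttr, Apoa1, Apoc3 and Serpina1a were at 0 in all 15 samples, as were Cd3e and Cd3g of the 7 T cell markers. Cd4, which some macrophages also express, rose from 1.32 FPKM to 6.86 and 7.16 (adjusted p = 4.27e-08 and 2.96e-08), and the other T cell markers had group means under 1 FPKM. The 4 monocyte markers summed to 2.39 to 3.75 FPKM in control samples, 7.05 to 11.98 in the miR-144 group and 6.59 to 11.1 in the miR-451a group, mostly Plac8, and the 5 B cell markers to 0.138 to 0.379, 1.11 to 1.45 and 1.18 to 1.75 FPKM, mostly Cd79b. Col1a1, a collagen of stellate cells, averaged 70.0, 102 and 124 FPKM in the control, miR-144 and miR-451a groups. The part of these markers in the results was not tested. In bulk samples such as these, fewer cells of a type and less RNA per cell cannot be told apart.

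Mcl1 and Bcl2l1 were higher, and the 3 copies of Bcl2a1 lower, in the TAMs of both miRNA groups than in control TAMs. Bid rose and Bak1 fell, while Bax and Bcl2l11 (BIM) passed the test in neither comparison. The call of Bak1 with miR-144 held in 12 of 24 alternative settings, and Bcl2l11 was called lower in both comparisons after median centring. Of the 9 members past the filter, 3 were called higher and 4 lower with miR-144, by limma at an adjusted p under 0.05 on log2(FPKM + 1). Over all 11419 genes tested, 67.2% were called in that comparison, 47.1% higher and 20.1% lower. The counts were also 3 higher and 4 lower with miR-451a, where 68.3% of all genes were called, 48.1% higher and 20.3% lower. The share of members called, 7 of 9, is near the background in each comparison. Both comparisons use the same 5 control samples, so their values are set side by side and are not independent of each other.

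**Figure D1:**
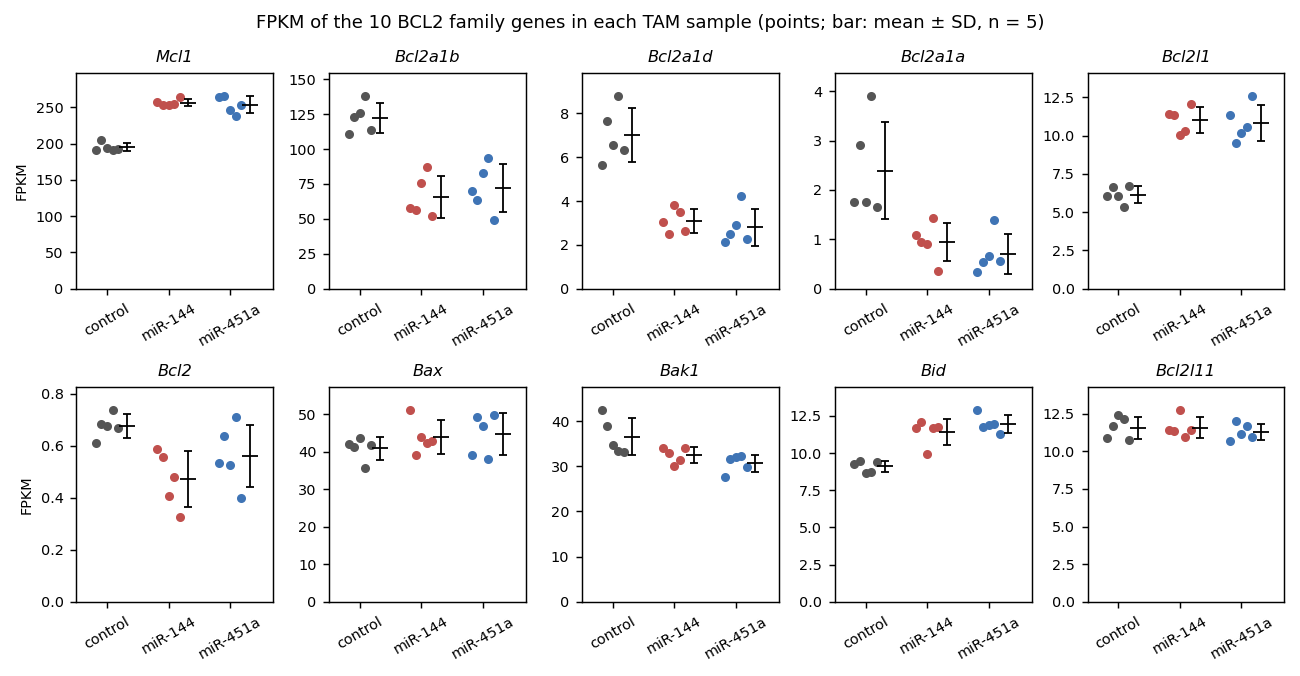
FPKM (vertical axes, from 0) of each of the 10 members in each sample, with 5 points per group and the mean ± SD (n = 5) as a bar to the right of the points. Mcl1, Bcl2l1 and Bid lie above the control points in both miRNA groups, the 3 Bcl2a1 copies lie below them, and Bax and Bcl2l11 overlap.

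Mcl1, a short-lived anti-death protein, had the highest level of the 10 members in every group. Its FPKM in control samples 1 to 5 was 192, 205, 193, 192 and 193. With miR-144 it was 257, 253, 253, 255 and 264, and with miR-451a 264, 265, 246, 239 and 253. No sample of either miRNA group fell into the control range, and the miRNA groups overlapped each other. The mean rose 1.32-fold with miR-144, by 0.39 (SE 0.03) on the log2 scale (adjusted p = 4.84e-08), and 1.30-fold with miR-451a, by 0.38 (SE 0.03, adjusted p = 7.86e-08). The difference of a typical gene was not 0, as the median over all genes tested was 0.13 in the miR-144 comparison and 0.14 in the other. After every sample was centred on its median, the rise of Mcl1 was 0.26 and 0.23 (adjusted p = 4.29e-06 and 1.36e-05). After quantile normalization it was 0.58 and 0.57 (adjusted p = 2.81e-09 and 3.33e-09), so its size depends on the scaling.

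Bcl2l1, the gene of BCL-XL, was expressed far below Mcl1. It was at 6.04, 6.67, 6.02, 5.30 and 6.69 FPKM in control samples 1 to 5. It was at 11.4, 11.3, 10.004, 10.3 and 12.1 FPKM with miR-144, and at 11.3, 9.51, 10.1, 10.6 and 12.6 FPKM with miR-451a. The lowest miRNA sample stood above the highest control sample. The mean rose 1.79-fold with miR-144 (log2 difference 0.75, SE 0.07, adjusted p = 2.74e-07) and 1.76-fold with miR-451a (0.72, SE 0.07, adjusted p = 3.98e-07). Bcl2l1 and Mcl1 give transcripts for both long anti-death and short pro-death proteins, and values per gene do not separate them.

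Bcl2a1a, Bcl2a1b and Bcl2a1d are near-identical copies of the gene of A1, an anti-death protein of blood cells that is induced in activated myeloid cells. In GRCm38 with GENCODE M21 they lie on chromosome 9, Bcl2a1a at chr9:88956900-88962419 and Bcl2a1b at chr9:89199209-89207827 on the plus strand, and Bcl2a1d at chr9:88723285-88731914 on the minus strand. The build used by the authors is not given in the sources used here. The coding sequence of each copy has 519 bases, and pairs of copies differ at 11 (Bcl2a1a and Bcl2a1b), 7 (Bcl2a1a and Bcl2a1d) and 6 bases (Bcl2a1b and Bcl2a1d). The first 90 coding bases, in exon 1 of 2, are printed because a fragment can be assigned to a copy only where they differ, and the 6 bases that vary among the copies there are in capitals. They lie at chr9:88957051-88957140 (plus strand), chr9:89199360-89199449 (plus strand) and chr9:88731630-88731719 (minus strand) for Bcl2a1a, Bcl2a1b and Bcl2a1d.
Bcl2a1a: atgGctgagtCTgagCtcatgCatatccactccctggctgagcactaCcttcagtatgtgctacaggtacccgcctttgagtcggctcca
Bcl2a1b: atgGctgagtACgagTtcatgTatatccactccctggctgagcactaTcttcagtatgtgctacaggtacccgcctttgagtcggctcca
Bcl2a1d: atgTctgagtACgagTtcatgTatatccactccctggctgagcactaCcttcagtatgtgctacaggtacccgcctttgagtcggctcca

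Of the 50-base stretches of the transcripts, 69.0% of those of Bcl2a1a, 79.2% of those of Bcl2a1b and 79.5% of those of Bcl2a1d also occur in another gene. The split between the copies is therefore uncertain, and their sum is given as well. Bcl2a1b also shares 401 of its 817 exon bases with Gm29094, an overlapping gene on the same strand at means of 3.17, 1.52 and 1.504 FPKM in the control, miR-144 and miR-451a groups.

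Most of the signal was assigned to Bcl2a1b, which made up 92.9% ± 1.03 (SD, n = 5) of the summed FPKM of the copies in control TAMs. Bcl2a1b was at 111, 123, 126, 138 and 113 FPKM in control samples 1 to 5. It was at 57.6, 56.5, 75.4, 86.9 and 51.7 FPKM with miR-144, and at 69.7, 63.5, 82.8, 93.8 and 49.4 FPKM with miR-451a. All 10 miRNA samples lay below all 5 control samples, with a wider spread within the miRNA groups. The mean was 1.86-fold lower with miR-144 (log2 difference -0.91, SE 0.16, adjusted p = 0.000156) and 1.70-fold lower with miR-451a (-0.79, SE 0.16, adjusted p = 0.000529).

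Bcl2a1d was at 5.66, 7.67, 6.55, 8.79 and 6.32 FPKM in control samples. It was at 3.03, 2.48, 3.82, 3.49 and 2.63 FPKM with miR-144 and at 2.14, 2.48, 2.91, 4.21 and 2.24 FPKM with miR-451a, again with no overlap with control. It fell by 0.97 (SE 0.14) on the log2 scale with miR-144 (adjusted p = 2.25e-05) and by 1.09 (SE 0.14) with miR-451a (adjusted p = 6.32e-06). Bcl2a1a, the lowest of the copies, averaged 2.40 FPKM in control TAMs and ranged there from 1.66 to 3.90, against 0.347 to 1.43 with miR-144 and 0.334 to 1.39 with miR-451a. It fell by 0.78 (SE 0.20, adjusted p = 0.00288) and by 0.98 (SE 0.20, adjusted p = 0.000464). The fourth copy, Bcl2a1c, was at 0 in the control and miR-144 groups and averaged 0.00742 FPKM with miR-451a.

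The summed FPKM of the 3 copies, which depends little on how fragments were split among them, as their transcripts have 819, 817 and 863 bases, was 132 ± 12.7 (SD, n = 5) in control TAMs, 69.6 ± 15.7 in the miR-144 group and 75.3 ± 18.2 in the miR-451a group. The control samples ranged from 118 to 150.4, the miR-144 samples from 54.6 to 91.8 and the miR-451a samples from 52.2 to 99.4. The ranges of the miRNA groups overlapped almost completely and neither reached the control range. Csf3r, a neutrophil marker that macrophages also express, fell in the same samples, from 70.4 ± 5.11 FPKM in control TAMs to 49.0 ± 2.41 and 48.3 ± 3.45 (SD, n = 5, adjusted p = 1.06e-06 and 6.40e-07). The other 5 neutrophil markers checked were at or near 0, with Retnlg at 0 in all 15 samples, Ly6g at 0 in control TAMs and S100a8 at means of 0.512, 0.213 and 0.419 FPKM in the control, miR-144 and miR-451a groups.

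The promoters of the copies are alike too, and the stretches printed for Bcl2a1a and Bcl2a1b are the same. A stretch upstream of each annotated start (RefSeq, GRCm38.p6) is printed for these 3 near-identical copies. The letters TGANTCA (AP-1-like, N being any base) and GAGGAAGT (a PU.1 core) are in capitals. The first match reads TGAATCA in each copy, and with N free it is looser than the AP-1 consensus. The stretches are chr9:88956714-88956825 (plus strand), chr9:89199023-89199134 (plus strand) and chr9:88731945-88732050 (minus strand).
Bcl2a1a: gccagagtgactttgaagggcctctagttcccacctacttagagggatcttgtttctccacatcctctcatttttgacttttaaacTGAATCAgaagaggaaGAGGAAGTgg
Bcl2a1b: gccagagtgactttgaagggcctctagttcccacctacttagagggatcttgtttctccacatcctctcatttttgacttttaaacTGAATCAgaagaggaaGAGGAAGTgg
Bcl2a1d: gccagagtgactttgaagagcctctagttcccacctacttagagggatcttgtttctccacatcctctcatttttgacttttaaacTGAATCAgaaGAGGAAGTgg

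On either strand of the window from 250 bases before to 50 bases after a start, TGANTCA was found in 7.81% of 32851 mouse promoters and GAGGAAGT in 3.20%. Among the members, TGANTCA was found only in the promoters of the 3 Bcl2a1 copies, and GAGGAAGT in those and in that of Bak1. The motifs do not overlap each other in the printed stretches. The NF-kB motif was found in 4.51% of promoters and, among the members, only in that of Bcl2l1. The motif of an interferon response element was found in 3.44% of promoters and in none of the 13 promoters of the members. Such a match is a description of the letters and says nothing of binding.

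Bcl2, the founding member, had the lowest mean of the 10 in every group, although its range met that of Bcl2a1a in both miRNA groups. It was at 0.612, 0.683, 0.674, 0.739 and 0.668 FPKM in control samples. It was at 0.589, 0.556, 0.406, 0.480 and 0.324 FPKM with miR-144 and at 0.532, 0.639, 0.528, 0.7104 and 0.398 FPKM with miR-451a. These values are far above the 0.0269 FPKM that 3 fragments give at the lowest depth, which covers counting error only. The miR-144 samples lay below the control range and the miR-451a samples overlapped it. In the fit without a filter, where 32.8% of 29540 genes were called with miR-144 (23.1% higher, 9.65% lower) and 34.2% with miR-451a (24.5% higher, 9.69% lower), Bcl2 fell by 0.19 (SE 0.06, adjusted p = 0.0238) with miR-144, and its difference with miR-451a was -0.10 (SE 0.06, adjusted p = 0.224). After median centring Bcl2 was called lower in both comparisons (-0.32 and -0.25, adjusted p = 0.000196 and 0.00173), and with TPM in neither (0.0562 and 0.420). The call with miR-144 was lost on leaving out control sample 4 (adjusted p = 0.0559), miR-144 sample 3 (0.0576) or miR-144 sample 5 (0.0641). Exons of Bcl2 overlap a gene on the other strand at 558 of 9157 bases, and whether the library kept strand is not given in the sources used here.

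Added together in FPKM as deposited, the 6 anti-death members hardly changed, while their make-up did. Their summed FPKM was 333 ± 14.2 (SD, n = 5) in control TAMs, 338 ± 13.0 in the miR-144 group and 340.2 ± 12.5 in the miR-451a group, and the ranges of the 3 groups overlapped. Mcl1 made up 58.5% ± 2.18 of that sum in control TAMs, 76.1% ± 3.47 in the miR-144 group and 74.6% ± 4.54 in the miR-451a group. The Bcl2a1 copies made up 39.4% ± 2.37, 20.5% ± 3.82 and 22.0% ± 4.77 (SD, n = 5). The ratio of Mcl1 to summed Bcl2a1 FPKM went from 1.27 to 1.62 in control samples to 2.78 to 4.83 with miR-144 and 2.40 to 4.85 with miR-451a. Bcl2l1 made up 1.85% ± 0.207, 3.27% ± 0.351 and 3.19% ± 0.453 of the sum, and Bcl2 under 1% in each. These sums and ratios are descriptions of transcript levels with no test, and protein was not measured in these files. The sum of the 6 was not taken under other scalings. Over all genes, summed FPKM was 300620 to 307552 in control samples, 285154 to 295105 with miR-144 and 283362 to 290739 with miR-451a.

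**Figure D2:**
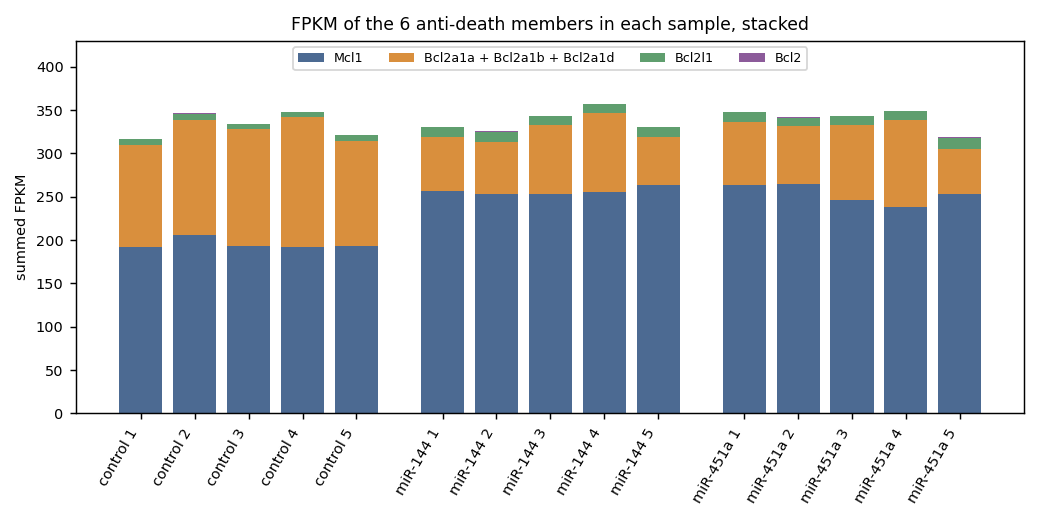
Summed FPKM as deposited (vertical axis, from 0) of the 6 anti-death members in each of the 15 samples (horizontal axis, by group and sample number), stacked by gene with the 3 Bcl2a1 copies as 1 block. The height of the stacks stays between 317 and 358 in every sample, while the Bcl2a1 block is smaller and the Mcl1 block larger in the miRNA groups, and the block of Bcl2 is too thin to see.

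Of the pore formers, Bax passed the test in neither comparison. It was at 42.1, 41.3, 43.7, 35.5 and 41.7 FPKM in control samples, at 51.2, 39.2, 44.0, 42.4 and 42.8 FPKM with miR-144 and at 39.1, 49.3, 46.8, 38.1 and 49.8 FPKM with miR-451a. The groups overlapped. The log2 difference was 0.10 with miR-144 (95% confidence interval -0.08 to 0.28, adjusted p = 0.324) and 0.12 with miR-451a (-0.07 to 0.30, adjusted p = 0.239), so the intervals reach from a small fall to a rise of 0.30. Bax shares 192 of 1576 exon bases with an overlapping gene, Gm45808.

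Bak1, the other pore former, was at 42.5, 38.9, 34.6, 33.4 and 33.2 FPKM in control samples. It was at 34.0, 32.8, 30.03, 31.5 and 34.0 FPKM with miR-144 and at 27.6, 31.6, 31.9, 32.2 and 29.8 FPKM with miR-451a. Control samples 1 and 2 stood above the other 3, the miR-144 samples overlapped the control range and the miR-451a samples did not. Bak1 fell by 0.24 (SE 0.07) with miR-451a (adjusted p = 0.00475) and by 0.16 (SE 0.07) with miR-144 (adjusted p = 0.0451). The call with miR-144 was lost on leaving out any of 8 samples, and without control sample 1 the difference was -0.11 (adjusted p = 0.126). It was also lost with a replicate block. After median centring the fall was larger, at -0.29 with miR-144 (adjusted p = 0.00142) and -0.39 with miR-451a (adjusted p = 0.000135). Exons of Bak1 overlap Ggnbp1 on the other strand at 614 of 2407 bases.

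Summed, Bax and Bak1 were at 77.4 ± 5.90 FPKM in control TAMs, 76.4 ± 5.201 with miR-144 and 75.3 ± 6.34 with miR-451a (SD, n = 5). The ratio of the 6 anti-death members to this sum was 4.34 ± 0.467, 4.44 ± 0.367 and 4.55 ± 0.517, and the groups overlapped. The ratio of Bax to Bcl2, often quoted as a measure of readiness to die, was 60.9 ± 7.79 in control TAMs, 97.2 ± 23.6 with miR-144 and 83.6 ± 26.5 with miR-451a (SD, n = 5). It ranged from 48.1 to 68.7 in control samples, from 70.6 to 132 with miR-144 and from 53.6 to 125 with miR-451a, so only the miR-144 group stood apart, and its divisor is a gene under 1 FPKM.

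Among the BH3-only members, Bid, which links death receptors to mitochondria once caspase-8 cuts its protein, was at 9.27, 9.50, 8.67, 8.75 and 9.39 FPKM in control samples. It was at 11.7, 12.1, 9.92, 11.7 and 11.7 FPKM with miR-144 and at 12.9, 11.8, 11.9, 11.98 and 11.3 FPKM with miR-451a. Neither miRNA group overlapped control, although miR-144 sample 3 came near it. Bid rose 1.25-fold with miR-144 (log2 difference 0.29, SE 0.05, adjusted p = 8.23e-05) and 1.31-fold with miR-451a (0.36, SE 0.05, adjusted p = 1.16e-05). After median centring the rise was 0.16 and 0.21 (adjusted p = 0.00653 and 0.000811). Exons of Bid overlap those of Bcl2l13 on the other strand at 628 of 3550 bases, and Bcl2l13 fell in both comparisons.

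Bcl2l11, whose BH3-only protein BIM binds all the anti-death members, was at 10.9, 11.7, 12.4, 12.1 and 10.7 FPKM in control samples. It was at 11.4, 11.4, 12.8, 10.9 and 11.4 FPKM with miR-144 and at 10.7, 11.98, 11.2, 11.6 and 10.98 FPKM with miR-451a. The groups overlapped. The log2 difference was 0.00 with miR-144 (95% confidence interval -0.10 to 0.10, adjusted p = 0.970) and -0.03 with miR-451a (-0.13 to 0.07, adjusted p = 0.601). After median centring it was -0.13 with miR-144 (adjusted p = 0.0350) and -0.17 with miR-451a (adjusted p = 0.00755), while after quantile normalization it was called only with miR-451a (-0.15, adjusted p = 0.0244) and not with miR-144 (-0.10, adjusted p = 0.0959).

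Among the 9 members past the filter, groups did not overlap with control for 3 higher and 3 lower with miR-144, where 53.9% of all genes tested did not overlap (37.9% higher, 16% lower), and for 3 higher and 4 lower with miR-451a, where the share was 55.2% (38.8% higher, 16.4% lower). The median log2 difference of the 9 members was 0.00 in the miR-144 comparison and -0.03 in the other, beside 0.13 and 0.14 over all genes. These counts and medians take the 3 near-identical Bcl2a1 copies as separate members.

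The order of levels was the same at the top of each group, Mcl1 over Bcl2a1b over Bax over Bak1. In control TAMs the ranges of Mcl1, Bcl2a1b and Bax were apart from each other, and those of Bax and Bak1 overlapped. In miR-451a TAMs, with the highest Bax sample at 49.8 FPKM and the lowest Bcl2a1b sample at 49.4 FPKM, the ranges of Bcl2a1b and Bax met. Bcl2l1 was the eighth of the 10 in control TAMs, where it overlapped Bcl2a1d above it, and the seventh in both miRNA groups, where it overlapped Bid or Bcl2l11 above it and stood apart from Bcl2a1d below it.

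Between the miRNA groups, no member was called. Limma called 0 of 11419 genes there (0%), with 596 at an unadjusted p under 0.05. The miRNA groups overlapped for all 10 members, and did not overlap for 0.849% of genes (0.552% higher with miR-451a, 0.298% lower). For Mcl1 the log2 difference of miR-451a against miR-144 was -0.02 (95% confidence interval -0.09 to 0.05), for Bcl2l1 -0.03 (-0.18 to 0.13) and for Bid 0.06 (-0.04 to 0.17). For Bcl2a1b it was 0.12 (-0.22 to 0.47), an interval wide enough to hold a difference near the size of that of Mcl1 against control. The members thus differed less between the miRNA groups than these samples can show, which does not make them equal.

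**Figure D3:**
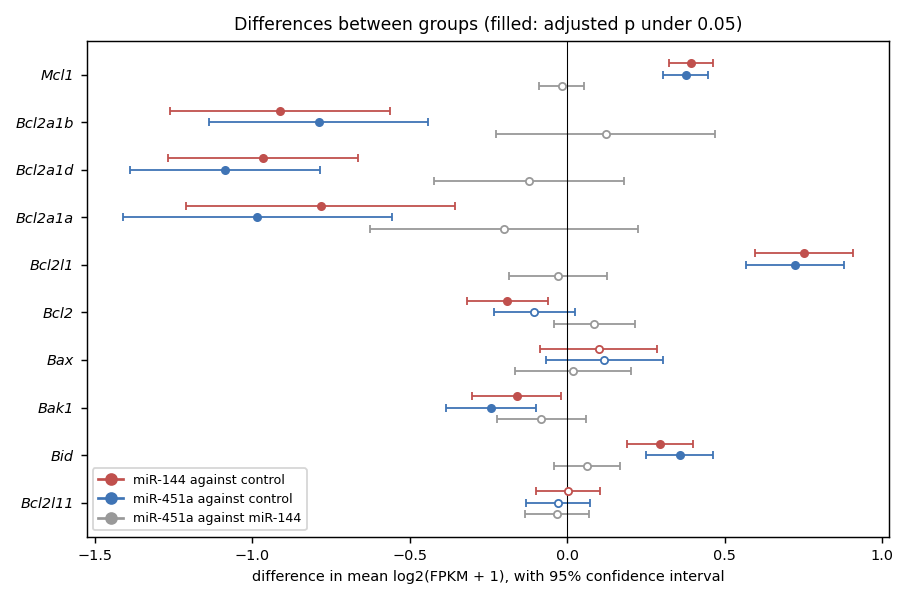
Difference in mean log2(FPKM + 1) between groups (horizontal axis) for the 10 members (vertical axis), with 95% confidence intervals. Red and blue points are the miRNA groups against control, grey points are miR-451a against miR-144, filled points have an adjusted p under 0.05, and Bcl2 is from the fit without a filter. Red and blue points lie close together for each member, and every grey interval crosses 0.

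The relatives of the members with a mean of at least 1 FPKM, 9 of the 16 other BCL2 family genes listed, included the largest change of the family. Of these 9, 6 were called higher and 2 lower with miR-144, and 5 higher and 2 lower with miR-451a, beside 47.1% and 20.1% of all genes in the first comparison and 48.1% and 20.3% in the second. Their median differences were 0.35 and 0.48, beside 0.13 and 0.14 over all genes. Bmf, a BH3-only protein held at the cytoskeleton until it is released, was at 3.09 ± 0.173 FPKM in control TAMs, 16.5 ± 0.7096 with miR-144 and 17.1 ± 1.17 with miR-451a (SD, n = 5). It rose by 2.10 and 2.15 on the log2 scale (adjusted p = 1.42e-14 and 1.07e-14), more than any of the 10 members.

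Pmaip1 (NOXA), whose protein binds MCL1 and A1, went from 2.02 ± 0.942 FPKM to 4.76 ± 1.67 with miR-144 and 4.83 ± 1.98 with miR-451a (log2 difference 0.95 in both, adjusted p = 0.00258 and 0.00247). Bbc3 (PUMA), which binds all the anti-death proteins, rose by 0.35 and 0.48 (adjusted p = 0.00126 and 6.34e-05). After median centring its rise was 0.21 and 0.34 (adjusted p = 0.0340 and 0.00192). The BH3-only genes Bid, Bmf, Bbc3 and Pmaip1 thus rose in both comparisons, whereas Bcl2l11 and Bad passed the test in neither. Bad was at 8.04 ± 1.64, 7.59 ± 1.5 and 9.35 ± 1.89 FPKM (SD, n = 5).

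Bnip3 and Bnip3l, relatives that mark mitochondria for removal, moved in opposite directions. Bnip3 rose by 0.59 and 0.70 (adjusted p = 3.49e-06 and 5.26e-07), whereas Bnip3l went from 61.4 ± 3.27 FPKM to 28.9 ± 1.88 and 29.4 ± 1.66 (log2 difference -1.06 and -1.04, adjusted p = 7.74e-11 and 9.77e-11). Bcl2l2 (BCL-W), an anti-death relative, was at 5.69 ± 2.76 FPKM in control TAMs and 10.1 ± 0.214 with miR-144 (log2 difference 0.83, adjusted p = 0.00986), and its difference with miR-451a was 0.60 (adjusted p = 0.0502). With TPM the latter was called (0.75, adjusted p = 0.0304). Bcl2l12 rose by 0.30 and 0.26, calls that were lost after median centring (adjusted p = 0.0651 and 0.182) and quantile normalization. Hrk and Bcl2l10 were at 0 in all samples.

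Downstream of the pore, Cycs, the gene of cytochrome c, fell from 17.6 ± 0.760 FPKM to 9.12 ± 0.647 with miR-144 and 8.49 ± 0.648 with miR-451a (log2 difference -0.88 and -0.97, adjusted p = 9.80e-10 and 2.84e-10). Htra2, a released protease, rose by 0.42 and 0.39 (adjusted p = 5.74e-07 and 1.39e-06), and by 0.29 and 0.24 after median centring. Of the 9 genes listed for release and the apoptosome, 4 were called higher and 3 lower with miR-144, beside 47.1% and 20.1% of all genes, and 4 higher and 2 lower with miR-451a, beside 48.1% and 20.3%. Their median differences were 0.06 and -0.03. Apaf1, the scaffold that cytochrome c activates, was among the higher ones at 0.10 in each comparison (adjusted p = 0.0473 and 0.0471). However, the signs of Apaf1 and Vdac3 in both comparisons, and of Aifm1 with miR-451a, turned after median centring and quantile normalization. Aifm1 with miR-144 lost its call under both (adjusted p = 0.578 and 0.379).

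The caspase genes named here split in direction, the same way in both comparisons. Casp8, which starts the death receptor branch and cuts BID, rose by 0.35 and 0.31 (adjusted p = 2.98e-06 and 1.09e-05), and Casp2 rose as well. Casp9, which APAF1 activates, went from 14.7 ± 1.32 FPKM to 11.01 ± 1.43 and 10.47 ± 0.156 (log2 difference -0.39 and -0.45, adjusted p = 0.000241 and 6.17e-05), and Casp6 fell as well. Of the inhibitors of apoptosis proteins, which bind caspases or ubiquitinate death receptor complexes, Xiap, Birc2 and Birc3 rose in both comparisons, by 0.34 to 0.47 on the log2 scale, and Birc6 was called in neither, beside 47.1% and 48.1% of all genes called higher. After median centring the rise of Xiap with miR-144 was 0.20 and that of Birc3 with miR-451a was 0.27. That of Birc2 was then 0.26 in both comparisons and that of Casp8 was 0.22 and 0.16.

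In the death receptor branch, 4 of 7 genes were called higher and Fas lower with miR-144, and 4 higher and none lower with miR-451a. This is near the 47.1% and 48.1% of all genes called higher, and the medians of the list, 0.15 and 0.11, are near those of all genes. The TNF receptor gene Tnfrsf1a rose by 0.39 and 0.38 (adjusted p = 1.66e-07 and 2.13e-07), and by 0.26 and 0.24 after median centring. Cflar, the gene of the caspase-8 inhibitor c-FLIP, rose by 0.15 and 0.11 (adjusted p = 0.00471 and 0.0252), but its call was lost after median centring and quantile normalization, and its sign with miR-451a turned under both. The calls of Tnfrsf10b and Ripk1 were also lost after quantile normalization. Fas lost its call with miR-144 under TPM (adjusted p = 0.178) and was called lower with miR-451a after median centring (0.00326) and quantile normalization (0.00323).

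Transcripts of genes whose proteins set how long MCL1 lasts were read as well. Fbxw7, a ubiquitin ligase subunit that targets MCL1 among others, went from 4.96 ± 0.285 FPKM to 2.47 ± 0.323 and 2.51 ± 0.474 (SD, n = 5, log2 difference -0.78 and -0.77, adjusted p = 1.04e-06 and 1.14e-06). The ligase gene Huwe1 (0.21 and 0.22) and the deubiquitinase gene Usp9x (0.17 and 0.20) were higher in both comparisons, and both calls were lost after median centring.

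Of the 13 genes listed for p53 and its targets, which include Bax and the relatives Bbc3 and Pmaip1, 12 passed the filter, and 10 were called higher and 1 lower with miR-144 and 9 higher and 1 lower with miR-451a. Over all genes 47.1% and 48.1% were called higher and 20.1% and 20.3% lower. The median log2 difference was 0.35 and 0.33, beside 0.13 and 0.14 over all genes. Trp53 rose by 0.35 and 0.28 (adjusted p = 2.90e-05 and 0.000199), which median centring took to 0.22 and 0.14 (adjusted p = 0.00256 and 0.0328), and Sesn2 rose by 0.68 and 0.74 (adjusted p = 3.65e-08 and 1.27e-08). Mdm2, a listed target whose protein also degrades p53, was the gene called lower, with differences of -0.24 and -0.27 (adjusted p = 0.000249 and 8.62e-05). It thus moved against the targets called higher, also after median centring (-0.38 and -0.42). Cdkn1a was called higher at 0.11 and 0.13, and its sign turned after median centring.

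**Figure D4:**
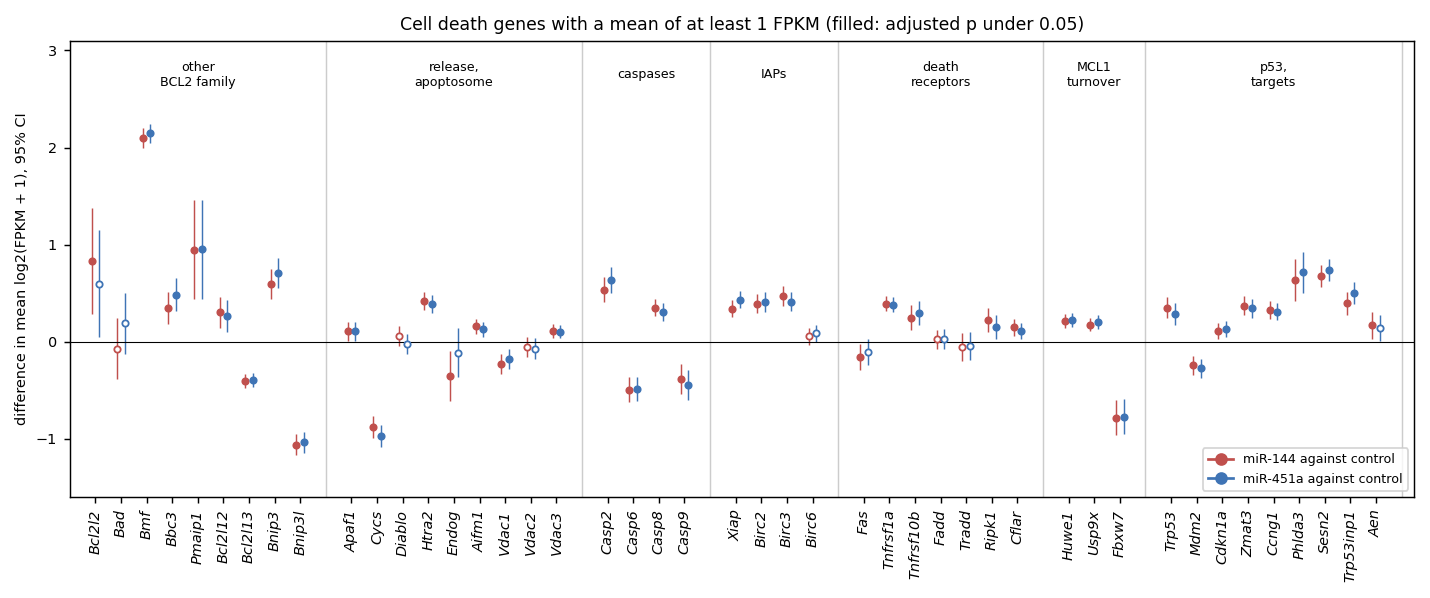
Difference in mean log2(FPKM + 1) from control (vertical axis, with 95% confidence intervals) for other cell death genes past the minimum of 1 FPKM, by list (horizontal axis), with miR-144 in red, miR-451a in blue and calls filled. Bmf stands at 2.10 and 2.15, Bnip3l at -1.06 and -1.04 and Cycs at -0.88 and -0.97, and Casp2 and Casp8 lie above 0 with Casp6 and Casp9 below it.

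Likeness of pattern was taken as Pearson's r of log2(FPKM + 1) over the 15 samples with each of 11418 other genes, which share libraries and groups, and is given as a description. Bcl2l1 was most like Tnf (r = 0.990), the cytokine gene, and Tnf also came first for deviations from the group means (r = 0.915). Tnf was at 1.62 ± 0.397 FPKM in control TAMs, 7.39 ± 1.199 with miR-144 and 6.41 ± 1.09 with miR-451a (SD, n = 5), and its highest sample was number 5 in every group, as was that of Bcl2l1. Mcl1 was most like Cd180 (r = 0.992), Bid most like Serpinf1 (r = 0.972) and Bak1 most like 6530402F18Rik (r = 0.886).

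Bcl2a1b was most like Ccr1 (r = 0.989), a chemokine receptor gene that went from 7.54 ± 0.727 FPKM in control TAMs to 2.698 ± 1.13 with miR-144 and 2.96 ± 1.30 with miR-451a (SD, n = 5). Bcl2a1d was most like mt-Nd4 (r = 0.988), a gene of the mitochondrial genome, also for deviations from the group means (r = 0.948), and Bcl2a1a was most like mt-Tp (r = 0.963). The summed FPKM of 37 mitochondrially encoded genes was 21922 to 24270 in control samples, 17847 to 20435 with miR-144 and 17713 to 20667 with miR-451a, and its part in the fall of Bcl2a1 was not tested. Bax (r = 0.774 with Helq) and Bcl2l11 (r = 0.743 with Gnaq) had no gene as close.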

How the data were processed

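The members, gene lists and tests were chosen with earlier results of these data known. The authors deposited FPKM per gene for 15 samples (3 groups of 5, grouped by the labels), and per the submitters' processing notes FastQC 0.11.2, STAR and StringTie were used, while the genome build is not given in the sources used here. Stranding of the libraries is not given either. FPKM were used as deposited. Of the gene identifiers, 99.7% occur in GENCODE M21 (GRCm38), the source of positions.

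Depth was read from the steps between low values. Because only 35.3% to 51.5% of these lay within 0.05 fragments of a step, no counts were recovered and no count model was used. With these steps taken as approximate fragments, the lowest mean chi-square per gene between samples of a group was 3.13. As counts were not recovered, this value cannot show whether samples differ by more than sampling noise.

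Limma 3.58.1 in R 4.3.3 fitted log2(FPKM + 1) to all 3 groups together, allowing the variance to follow the mean, over the 11419 genes that averaged 1 FPKM or more, with p-values adjusted by the Benjamini-Hochberg method. Genes under that minimum were read from a fit of all 29540 genes above 0 in at least 1 sample. Fold changes in the text are ratios of mean FPKM, and log2 differences understate changes near 1 FPKM. The limma step was checked on simulated data. Some listed genes are not reported here. Genes named were the members, the listed genes, markers of other cell types and the gene most like each member. Markers of eosinophils, dendritic cells and NK cells were also summed, at under 3 FPKM in every sample. Alternatives were a pseudocount of 0.1, no filter, a minimum of 5 FPKM, quantile normalization, median centring, TPM, a replicate block, no variance trend, only the 2 groups compared and each sample left out. Python 3.11.15, numpy 2.4.6, pandas 2.3.3 and matplotlib 3.10.9 were used.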

Additional observations from a re-analysis of the deposited data

Results flagged for a closer look

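In 36 groups of 5 values (the 10 members, the Bcl2a1 sum and the ratio of Bax to Bcl2, in 3 groups), 3 held a sample far from the other 4, by a gap of over 0.71 of the group's range (Dixon's criterion), which chance gives in about 5% of groups. Mcl1 in control sample 2 was at 205 FPKM with the nearest at 193, a gap of 0.875 of the range. Bcl2l11 in miR-144 sample 3 was at 12.8 FPKM with the nearest at 11.4, a gap of 0.744. Bid in miR-144 sample 3 was at 9.92 FPKM with the nearest at 11.7, a gap of 0.813. The differences of Mcl1 and Bid from control kept their direction and call without these samples, and that of Bcl2l11 remained without a call.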

How the results depend on the processing

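Of 22 to 24 alternatives per member, every one kept the direction and call of Mcl1, Bcl2l1, the Bcl2a1 copies and Bid in both comparisons with control, and no alternative called a member between the miRNA groups. With a minimum of 5 FPKM, 4776 genes were called with miR-144 and 4821 with miR-451a, as fewer genes (6639) were tested. The difference of Bcl2l11 with miR-144 turned to -0.13 after median centring. Leaving out each sample in turn gave 0 to 2 called genes between the miRNA groups, with 2 without miR-144 sample 4, miR-144 sample 5 or miR-451a sample 3 and 1 without miR-451a sample 5. Bak1 with miR-144 lost its call with no filter (adjusted p = 0.0883), with TPM (0.237), with only the 2 groups compared (0.0635) and without any of 8 samples (control 1 or 2, miR-144 2, 3 or 4, miR-451a 2, 3 or 5), and kept it after quantile normalization (0.0243). Bcl2 with miR-144 lost its call with TPM (0.0562) and with miR-451a gained one after median centring (0.00173) and quantile normalization (0.00354). With miR-144, 5376 of 7668 calls were higher, against 3512 of 7023 after median centring.

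The labels do not say that a number marks a shared source, so the main fit used no block. Deviations of same-numbered samples from group means correlated at -0.150 to 0.264 (mean 0.0760, against -0.0189 for other pairs), at over 0.1 in 8 of 15 pairs. Among the 5 samples of another group, a sample was most like its own number in 12 of 30 cases. This is a hint from the data that some numbers share more. A replicate block gave 7711 and 7859 genes called with miR-144 and miR-451a and 0 between them, and Bak1 with miR-144 had an adjusted p of 0.0679. Depth is approximate, transcript forms of a gene were not separated, and the split among Bcl2a1 copies is uncertain.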

Other observations

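Sample 4 had the highest summed Bcl2a1 FPKM in each group, at 150.4 in control TAMs, 91.8 in the miR-144 group and 99.4 in the miR-451a group, and sample 5 the lowest in both miRNA groups, at 54.6 and 52.2. Bcl2l1 had its highest value in sample 5 of each group, at 6.69, 12.1 and 12.6 FPKM. Among genes under the filter, Bok, a pore-forming relative of Bax and Bak1, was at 0.682 ± 0.142 FPKM in control TAMs, 0.902 ± 0.192 with miR-144 and 1.27 ± 0.162 with miR-451a (SD, n = 5), and it was called higher with miR-451a (log2 difference 0.44, adjusted p = 0.000587) and not with miR-144 (0.18, adjusted p = 0.125), while miR-451a against miR-144 was not called (0.26, adjusted p = 0.831). Siglecf, a marker of eosinophils and some macrophages, fell from 2.26 ± 0.225 FPKM to 0.357 ± 0.142 and 0.355 ± 0.0982 (adjusted p = 8.82e-09 and 8.51e-09), with the eosinophil genes Prg2 and Epx at or near 0. Summed FPKM of 4 dividing cell markers was 12.2 to 13.8 in control samples, 9.72 to 11.9 with miR-144 and 10.8 to 14.4 with miR-451a, and the list split. Mki67 (-0.44 and -0.32) and Ccnb1 (-0.41 and -0.24) were called lower, and Top2a (0.18 and 0.26) and Cdk1 (0.29 and 0.38) higher, with miR-144 and miR-451a.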
